A study of Mus musculus with 4 samples.

Results

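The adhesion genes described here were 6 integrin chains (Itgam, Itgax, Itgal, Itgb2, Itga4 and Itgb7), the selectin ligand Selplg, and the ligands Icam1 and Vcam1. They were chosen by name, as integrins of leukocytes and as ligands on vessel walls, and are 9 of the 30406 genes that all 4 count matrices share. The cells came from popliteal lymphatic vessels (PLVs), which drain the lower limb, and from the superficial saphenous vein (SSV) beside them, of C57BL/6J mice. Each of the 4 libraries was made from the pooled vessels of 3 mice.

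Leukocytes leave the blood in steps. P-selectin glycoprotein ligand 1, encoded by Selplg, lets them roll on selectins, and integrins then hold them firmly. The beta 2 chain (Itgb2) pairs with the alpha chains CD11a (Itgal), CD11b (Itgam) and CD11c (Itgax) to bind ICAM-1 and other ligands. The alpha 4 chain (Itga4) pairs with beta 1 to bind VCAM-1 and fibronectin, or with beta 7 (Itgb7) to bind the addressin MAdCAM-1. TNF is known to induce ICAM-1 and VCAM-1 on endothelium through NF-kB.

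The tdT1 and tdT2 libraries held tdTomato-positive cells of male and female Cspg4-Cre+/-, Ai9-tdTomato+/- mice more than 8 months old, in which the Cspg4 promoter drives Cre and so decides which cells carry the reporter. The WT library came from male wild-type mice, and the TNF-Tg library from male mice that overexpress TNF and develop arthritis. Both were sorted on high forward and side scatter without a reporter, at 9 months of age. All vessels were dissociated with Accumax at room temperature. With 1 WT and 1 TNF-Tg library, condition, pool and library preparation cannot be told apart, and no p-value is given between them. The gene lists hold no entry for the transgene, so this label could not be checked by its RNA.

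The libraries held 1504 (tdT1), 454 (tdT2), 5488 (WT) and 3391 (TNF-Tg) cells and 2357031 to 68773605 unique molecular identifiers (UMIs), with medians of 4932.5 to 12660 UMIs per cell. Pairs of libraries shared 0 to 5 cell barcodes. The tdT1 library stood apart, with more than 10% mitochondrial UMIs in 516 cells. By the paper's account, tdT1 alone was sorted through a smaller nozzle, into a tube not held overnight with serum. It was also read on another model of sequencer than the other libraries. These steps and the tdT1 pool cannot be told apart. Cells were gated by marker genes, none of them a member. Among the types with a named cluster, between 75.4% (inflammatory monocyte-like) and 99.8% (neutrophil-like) of the gated cells lay in the cluster of that name. In the other direction the match was weaker for some types. The gates kept 419 of 870 cells of the M1-macrophage cluster, 289 of 438 of the Cd209a dendritic cluster and 991 of 1540 of the VSMC cluster. They kept 2606 of 2689 cells of the LMC cluster and 600 of 619 of the neutrophil cluster. Over all clusters, the Cd209a gate held 148 WT and 145 TNF-Tg cells, where the Cd209a cluster held 153 and 250. The VSMC gate held 510 and 293, where the VSMC cluster held 665 and 513. The M1 gate held 250 and 172, where the M1 cluster held 512 and 330. Beside the clusters, the Cd209a and VSMC gates were thus narrower in TNF-Tg than in WT. The part of this in the ratios was not tested. The cells with markers of lymphatic muscle cells (LMCs) or vascular smooth muscle cells (VSMCs) are called LMC-marker and VSMC-marker cells. These names were used because Acta2, Myh11, Tagln and Cnn1 were at 6.08 or fewer UMIs per 1000000 UMIs (UPM) in both, in every library. Of the 7 contractile genes listed, Rgs5 was also low, at 1.39 or less, but Des and Notch3 were not low throughout. Des was at 36.4, 10.4, 34.8 and 24.1 UPM in LMC-marker cells of tdT1, tdT2, WT and TNF-Tg. In VSMC-marker cells Des was at 14.6, 4.40, 1.53 and 3.22. Notch3 was at 12.97 in LMC-marker cells of tdT2, at 9.73 in VSMC-marker cells of tdT1, and at 2.14 or less otherwise.

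In the GENCODE vM21 annotation of GRCm38, Itgal (chr7:127296260-127335138), Itgam (chr7:128062640-128118491) and Itgax (chr7:128129547-128150657) lay on the plus strand of the same chromosome. Itgb2 (chr10:77530252-77565708), Itga4 (chr2:79255426-79333123) and Icam1 (chr9:21015985-21028817) also lay on a plus strand. Itgb7 (chr15:102215995-102231944), Selplg (chr5:113818536-113832644) and Vcam1 (chr3:116109949-116129688) lay on the minus strand. Itgam overlaps Gm49368 on the same strand, a gene listed for tdT1 alone, where it had 15 UMIs beside 376 of Itgam. The Itgam level of tdT1 is therefore uncertain, by an amount that these counts do not give. The genes that overlap Itga4, Icam1 and Vcam1 on the opposite strand held 0 to 79 UMIs per library.

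The 250 bases before the RefSeq start (GRCm38.p6) are shown for Icam1, Itgam and Itgb7, because the results turn on the cells in which these 3 genes were read. RefSeq promoters were at hand for 5 of the 9 members. Capitals mark matches on either strand to GGANNTTCC, a core of NF-kB sites, or to GAGGAA, a core of PU.1 sites, letters that were picked with the known Icam1 site in mind. No match to the former overlaps a match to the latter here.
Icam1, chr9:21015690-21015939, plus strand: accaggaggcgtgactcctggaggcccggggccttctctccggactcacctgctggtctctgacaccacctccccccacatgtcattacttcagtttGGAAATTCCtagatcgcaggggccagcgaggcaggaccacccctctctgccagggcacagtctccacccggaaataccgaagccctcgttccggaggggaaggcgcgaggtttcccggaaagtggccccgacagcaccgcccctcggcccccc
Itgam, chr7:128062390-128062639, plus strand: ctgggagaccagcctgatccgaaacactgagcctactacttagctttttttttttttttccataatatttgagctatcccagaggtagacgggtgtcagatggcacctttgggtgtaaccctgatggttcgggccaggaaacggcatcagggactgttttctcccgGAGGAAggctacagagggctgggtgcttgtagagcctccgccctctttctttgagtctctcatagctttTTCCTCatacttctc
Itgb7, chr15:102231936-102232185, minus strand: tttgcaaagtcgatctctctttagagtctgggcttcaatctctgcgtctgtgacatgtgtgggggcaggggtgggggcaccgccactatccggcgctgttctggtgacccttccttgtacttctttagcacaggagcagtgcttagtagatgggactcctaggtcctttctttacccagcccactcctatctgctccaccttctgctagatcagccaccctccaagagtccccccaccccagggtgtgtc
The Icam1 window held 1 match to GGANNTTCC, at position -153 from the start, and 3.59% of 32851 promoters of this length hold such a match. The Itgam window held 2 matches to GAGGAA, at -84 and -15, and 23.3% of the promoters hold such a match. The Itgb7, Itgax and Itga4 windows held neither, which says only that these letters are not there.

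Levels in UPM are UMIs of the gene per 1000000 UMIs of that cell type and library, where the library had at least 10 cells of the type, and types are ordered by the mean over libraries where 2 or more gave a value. The beta 2 family was read in nearly all leukocyte types, with a different pattern for each alpha chain. In LMC-marker and VSMC-marker cells the integrin chains other than Itgb7, and Selplg, were at 0 to 2.20 UPM. The stromal gates set a limit on leukocyte lineage genes, which bears on these low values.

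**Figure D1:**
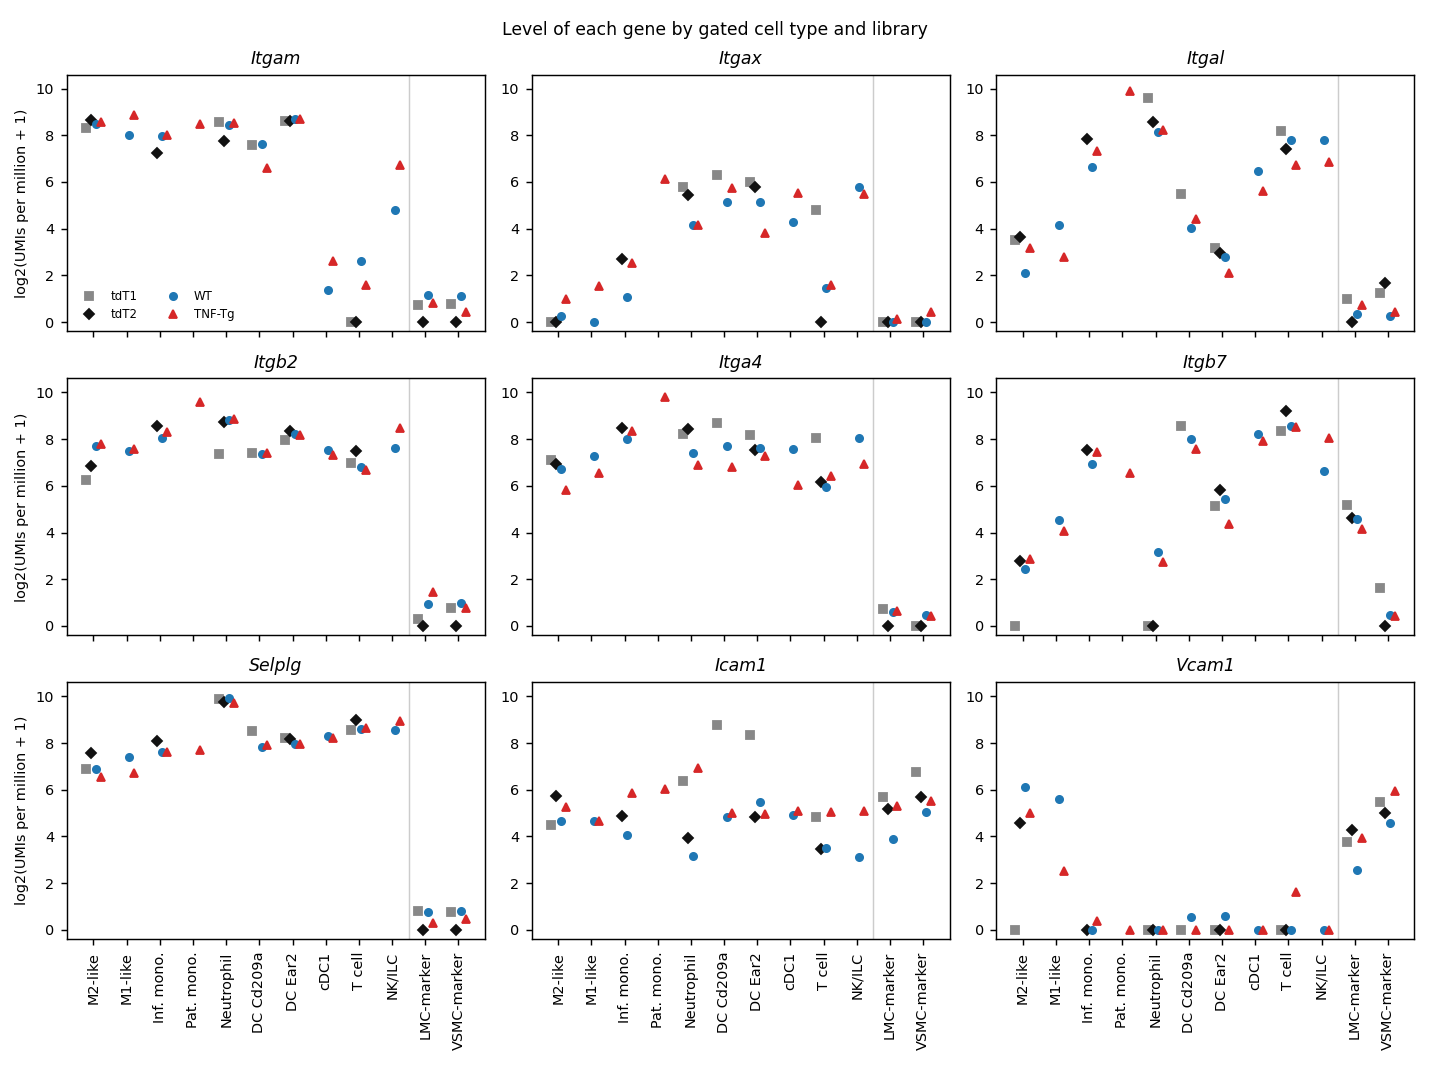
Level of each gene by gated cell type, as log2(UPM + 1), with 1 symbol per library that held at least 10 cells of the type. The integrin chains and Selplg lie near 0 in LMC-marker and VSMC-marker cells, except Itgb7 in LMC-marker cells, and Vcam1 is high only in macrophage-like and stromal cells among the types plotted.

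Itgb2, the shared beta 2 chain, was at 164, 426, 453 and 458 UPM in neutrophil-like cells of tdT1, tdT2, WT and TNF-Tg. The tdT1 value, from 11 cells and 6 UMIs, was the low one. The mean was 375.5 ± 142 UPM (SD, n = 4 libraries) in neutrophil-like and 319 ± 58.0 (n = 3) in inflammatory monocyte-like cells, and the ranges of neighbouring types overlapped from there down to NK- or ILC-like cells. T-cell-like cells had 130.2 ± 35.2 (n = 4). In mast-like cells no UMI was read, which allows up to 24.4 UPM in WT and 179 in TNF-Tg.

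Itgam, the CD11b chain used to recognise myeloid cells, was at 391, 391, 410.1 and 417 UPM in the Ear2-marked dendritic cell-like cells of tdT1, tdT2, WT and TNF-Tg. The libraries lay close together there. M2-macrophage-like cells followed (364 ± 37.7, SD, n = 4), and ranges of neighbours overlapped down to Cd209a-marked dendritic cell-like cells (160.0 ± 56.6, n = 3). T-cell-like cells held 0 to 5.17, and cDC1-like cells, the dendritic cells that cross-present antigen, held 1.55 and 5.19.

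Itgal, the CD11a chain of LFA-1, was at 766, 384, 282 and 296 UPM in neutrophil-like cells, in the same order of libraries. T-cell-like cells held 289.6, 171, 219 and 105, so the ranges of these types overlapped. The patrolling monocyte-like cells, which only TNF-Tg held in number (221 cells), were at 961 UPM, and the inflammatory monocyte-like cells of that library at 160.1. In macrophage-like and Ear2-marked dendritic cell-like cells Itgal was at 3.28 to 16.9.

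Itgax, the CD11c chain by which dendritic cells are often recognised, was at 76.6, 34.4 and 52.6 UPM in Cd209a-marked dendritic cell-like cells of tdT1, WT and TNF-Tg. Ranges of neighbours overlapped through NK- or ILC-like, Ear2-marked dendritic cell-like, neutrophil-like and cDC1-like cells. Macrophage-like cells of both kinds were at 1.95 or less, and the patrolling monocyte-like cells of TNF-Tg at 68.1.

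Itga4 and Itgb7, which can form 1 receptor, parted in their levels. Itga4 was at 55.2 UPM or more in every leukocyte type and library in the order, with the highest mean in inflammatory monocyte-like cells (311 ± 52.1, SD, n = 3), and the ranges of all neighbouring leukocyte types overlapped. The patrolling monocyte-like cells of TNF-Tg were at 882.

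Itgb7 was at 326, 592, 381 and 363 UPM in T-cell-like cells of tdT1, tdT2, WT and TNF-Tg, and at 376, 256 and 189 in Cd209a-marked dendritic cell-like cells of tdT1, WT and TNF-Tg. The cDC1-like cells held 296 and 243 in WT and TNF-Tg. Inflammatory monocyte-like cells held 119.7 to 184, neutrophil-like cells 0 to 7.97 and M2-macrophage-like cells 0 to 6.35. Itgae, the alpha E chain that pairs with beta 7, was at 26.3 to 110.4 UPM in T-cell-like and at 53.9 and 64.3 in cDC1-like cells, but at 0.441 or less in Cd209a-marked dendritic cell-like cells. No UMI of Madcam1 was read in any type and library with 10 cells.

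Selplg was at 957, 853, 968 and 833 UPM in neutrophil-like cells of tdT1, tdT2, WT and TNF-Tg. This range did not overlap that of the next type, NK- or ILC-like cells (376 and 492), which in turn overlapped that of T-cell-like cells (371 to 512). Macrophage-like cells of both kinds held 92.6 to 191. Among its partners, the endothelial selectins Sele and Selp were at 605 and 2506 in the 31 endothelial-like cells of tdT1.

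Icam1 was read in all types of the order but mast-like cells, whose 0 allows up to 24.4 UPM in WT and 179 in TNF-Tg. The order of Icam1 rested on tdT1, while Vcam1 was read in few types. In Cd209a-marked dendritic cell-like cells Icam1 was at 434 UPM in tdT1, 27.8 in WT and 31.1 in TNF-Tg, and in Ear2-marked cells at 327 in tdT1 and at 27.4 to 43.6 in the other libraries. The tdT1 values put these types at the head of the order. A sum of 7 NF-kB feedback genes, among them Nfkbia and Tnfaip3, was set beside these levels. It was at 6855 UPM in Cd209a-marked cells of tdT1, 846 in WT and 773 in TNF-Tg. In M2-macrophage-like cells it was at 3435 in tdT1 (25 cells) and 661.5 in WT, where Icam1 was at 21.1 and 24.1. A sum of 8 immediate-early genes, such as Fos and Egr1, was at 28393 and 6022 there. The part of these sums in the Icam1 level was not tested. In the 31 endothelial-like cells of tdT1 Icam1 was at 2740.1 (1087 UMIs, in 30 cells), and the 6 such cells of TNF-Tg held 10 UMIs, or 168 UPM.

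Vcam1 was at 43.1, 30.8, 23.1 and 59.7 UPM in VSMC-marker cells of tdT1, tdT2, WT and TNF-Tg, and at 12.4, 18.2, 4.85 and 14.2 in LMC-marker cells. M2-macrophage-like cells held 0, 23.1, 68.8 and 30.8, and the 0 of tdT1 (25 cells) allows up to 31.7. Neutrophil-like cells held none in any library, which allows up to 2.39 in WT and 4.22 in TNF-Tg, counting error only. The tdT1 endothelial-like cells were at 118, from 47 UMIs in 12 cells. The types below LMC-marker cells in the order were at 2.03 or less.

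Cell types were compared with UMIs summed by type and library and the library as a block (edgeR's quasi-likelihood test, Benjamini-Hochberg adjustment, adjusted p below 0.01). The libraries differ in genotype and sort, and tdT1 also in sequencer. The p-values therefore measure the spread between these libraries and not between like replicates. LMC-marker and VSMC-marker cells differed in all 3 members that had enough UMIs to be tested. Itgb7 was higher in LMC-marker cells, where 6.36% of 10591 genes were called higher, and Vcam1 and Icam1 were lower, where 8.3% were called lower.

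Itgb7 was at 34.8, 23.4, 23.0 and 16.8 UPM in LMC-marker cells of tdT1, tdT2, WT and TNF-Tg and at 2.09, 0, 0.382 and 0.357 in VSMC-marker cells, and the ranges did not overlap. The difference passed the test (edgeR adjusted p = 3.92e-08, n = 4 libraries), but its size rests on 3, 0, 2 and 1 UMIs in VSMC-marker cells, and the fitted log2 value ran from 3.50 to 5.71 over 11 alternatives. The ranges of Vcam1 did not overlap either, with a log2 difference of -2.10 ± 0.18 (edgeR adjusted p = 5.60e-07). Icam1 was at 49.97, 35.0, 13.6 and 38.9 in LMC-marker and at 108, 50.6, 31.5 and 45.4 in VSMC-marker cells. Its ranges overlapped, but VSMC-marker cells were higher in 4 of 4 libraries (log2 -0.96 ± 0.16, edgeR adjusted p = 0.000328). Without the block, the adjusted p of edgeR was 0.418 for Icam1 and 0.0322 for Vcam1.

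**Figure D2:**
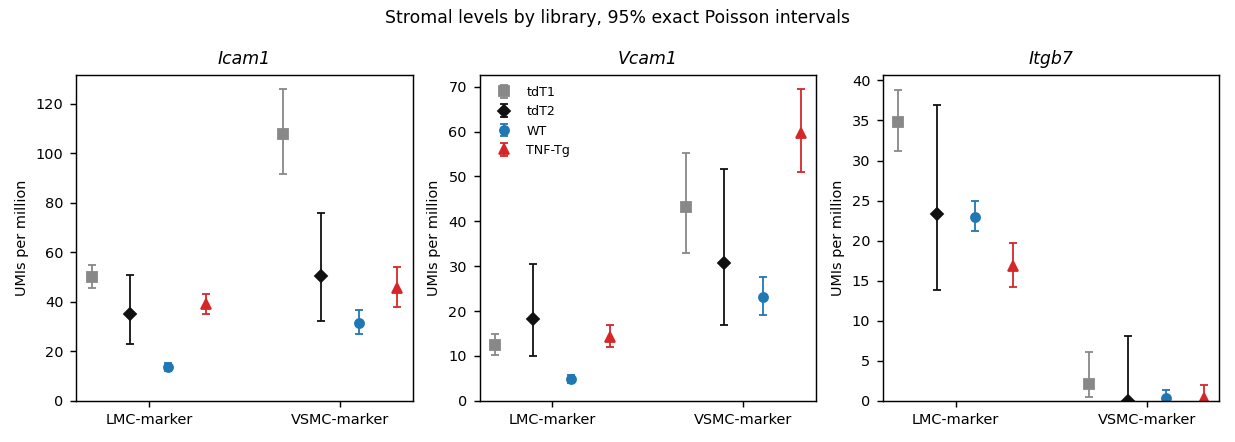
Icam1, Vcam1 and Itgb7 in LMC-marker and VSMC-marker cells of each library, in UPM, with exact 95% Poisson intervals that cover counting error only. Itgb7 is at 16.8 or more in LMC-marker cells and at 2.09 or less in VSMC-marker cells, and WT is the lowest library for Icam1 and Vcam1 in both.

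Neutrophil-like and inflammatory monocyte-like cells were compared in tdT2, WT and TNF-Tg, and 27.3% of 5958 genes were called higher and 28.6% lower in neutrophil-like cells. Of 8 members tested, 6 were higher, which were Selplg (log2 2.72 ± 0.22, SE), Itgax (2.89 ± 0.55), Itgal (1.73 ± 0.24), Itgb2 (1.20 ± 0.22), Itgam (1.15 ± 0.24) and Icam1 (1.11 ± 0.36). By level, however, Icam1 was higher in neutrophil-like cells only in TNF-Tg (119 against 56.6 UPM). It was lower there in WT (7.97 against 15.5) and in tdT2. Itgb7 was lower (log2 -3.73 ± 0.39), and Itga4 was not called (log2 -0.13 ± 0.24, edgeR adjusted p = 0.644). The fit scales libraries by TMM and the levels do not, so the sizes differ. By level, Itgam and Itgb2 were higher by less than 2-fold in tdT2, WT and TNF-Tg (Itgb2 at 458 against 311 UPM in TNF-Tg). Itga4 was lower by level in these libraries (341 against 358 in tdT2, 118 against 321 in TNF-Tg). With size factors in place of TMM, 38.9% and not 48.8% of all calls were higher, and the median of all genes was at -0.37 and not -0.08 on the log2 scale. The call of Icam1 was lost in 7 of 9 alternatives, and those of Itgam and Itgb2 were lost without WT (edgeR adjusted p = 0.0652 and 0.0747) and without TNF-Tg (0.0505 and 0.0186). That of Itgb2 was also lost with cells from clusters (edgeR adjusted p = 0.0239).

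The other comparisons rested on WT and TNF-Tg. Cd209a-marked dendritic cell-like cells were higher than M1-macrophage-like cells in Itgax (edgeR adjusted p = 1.33e-05) and Itgb7 (log2 3.81 ± 0.27, SE), where 5.98% of 9220 genes were called higher, and lower in Vcam1, where 6.67% were called lower. They held 1 UMI of Vcam1 in WT and 0 in TNF-Tg, and the M1-macrophage-like cells held 0 and 5 UMIs of Itgax. T-cell-like cells were higher than M1-macrophage-like cells in Itgb7 (log2 4.30 ± 0.40), Itgal (3.84 ± 0.36) and Selplg (1.56 ± 0.38, edgeR adjusted p = 0.00431), against 8.03% of 8850 genes, and lower in Itgam, of which they held 3 and 1 UMIs, against 11.8%. The fitted differences of Itgax, Vcam1 and Itgam against so few UMIs depend on the prior count and are not given. Without the block the calls of Itgax and Vcam1 in the dendritic cell-like comparison (edgeR adjusted p = 0.0113 and 0.0562) and of Selplg in the T-cell-like comparison (0.0192) were lost, and that of Selplg was also lost with DESeq2 (adjusted p = 0.0156).

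Between M2-macrophage-like and M1-macrophage-like cells no member passed the threshold, but up to 3 did under other settings. The edgeR test called 0 of 8 members, where 0.669% of 9721 genes were called higher and 0.844% lower, and DESeq2 also called 0. With no filter on low counts edgeR called Itgb7 (adjusted p = 3.24e-08) and Itgal (0.00563) lower and Vcam1 (0.000135) higher. In that setting 575 of 15979 genes were called higher and 438 lower. With cells from clusters, in 4 libraries, edgeR called Itgb7 (adjusted p = 5.70e-06) and Itgal (0.000523) lower, where 216 of 8537 genes were called lower. At an unadjusted p under 0.05 there were 4 of the 8 members, where 2333 of the 9721 genes were. The lowest adjusted p of edgeR was that of Itgb7 (log2 -2.01 ± 0.33, SE, adjusted p = 0.0172), which is a call at a threshold of 0.05.

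Icam1 was higher in TNF-Tg than in WT past 2-fold in more cell types than any other member, and Vcam1 was higher in stromal and lower in macrophage-like cells. The ratio was taken in 9 cell types with at least 50 cells in both libraries, to ask how adhesion genes differ in the vessels of arthritic mice. Of 81 pairs of member and type, 59 had at least 20 UMIs, and 34 of these were above 1. The share of all pairs of gene and type above 1 was not taken. The median log2 ratio of all genes ran from -0.27 (VSMC-marker) to 0.04 (M2-macrophage-like) over the types. Past 2-fold, 9 pairs were higher and 6 lower, where 5.39% and 8.83% of 77867 pairs of gene and type were. The 9 include Itgax in inflammatory monocyte-like cells, with 1 UMI in WT and 33 in TNF-Tg and an interval that held 1. The 95% intervals cover counting error only and say nothing of the spread between mice.

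**Figure D3:**
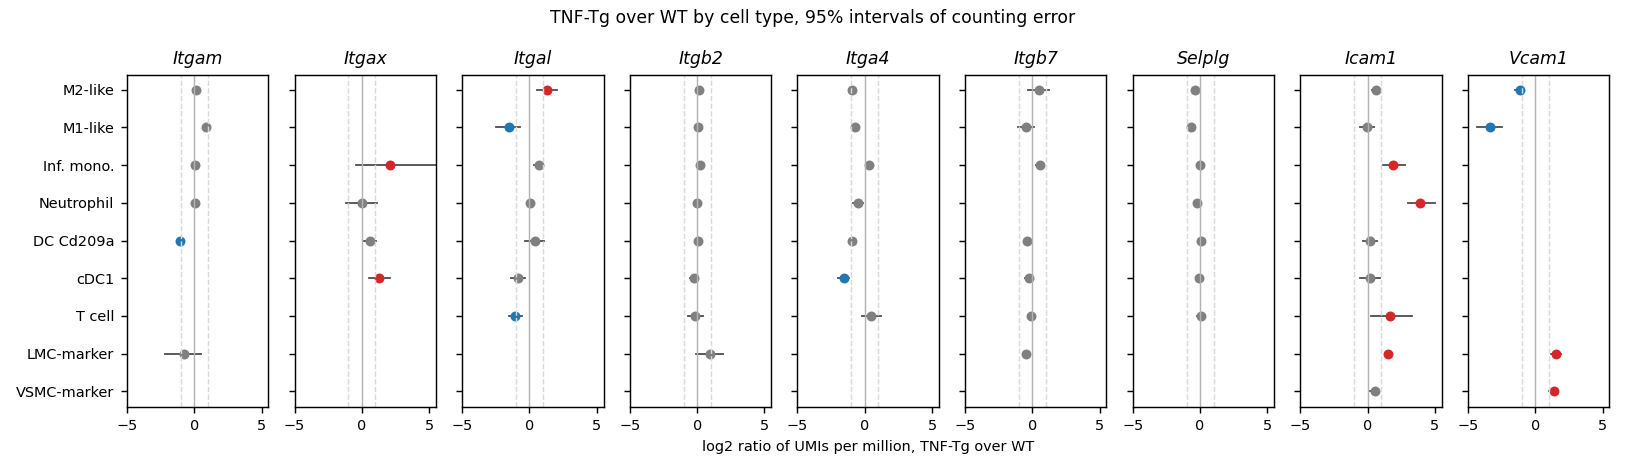
The log2 ratio of UPM, TNF-Tg over WT, for each member and cell type with at least 20 UMIs in both libraries together, with 95% intervals of counting error. Red points are 2-fold or more higher, blue points 2-fold or more lower, and dashed lines mark 2-fold. Icam1 has 4 of the 9 red points, and the interval of Itgax in inflammatory monocyte-like cells runs past the axis.

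Icam1 was at 7.97 UPM in WT and 119 in TNF-Tg neutrophil-like cells, a ratio of 15.0 (7.77 to 32.4), where 6.06% of genes were 2-fold higher and 8.95% lower. The tdT1 and tdT2 libraries were at 82.0 (3 UMIs) and 14.2 (1 UMI), so TNF-Tg was above all 3, as it was for 16.6% of genes (below for 19.8%). A UMI was read in 10 of 339 WT cells (2.95%, exact 95% interval 1.42 to 5.36) and 36 of 221 TNF-Tg cells (16.3%, 11.7 to 21.8), at median depths of 3517 and 3050 UMIs. These intervals count the cells of 1 library each and say nothing of the spread between mice. Thinned to 3000 UMIs per cell, they were 3 of 231 (1.30%) and 13 of 116 (11.2%). In mast-like cells, at median depths of 995 and 896, 0 of 97 WT and 0 of 17 TNF-Tg cells held a UMI. This allows up to 24.4 UPM in WT and 179 in TNF-Tg, so it cannot be set against the neutrophil-like levels. The NF-kB feedback genes summed to 1005 UPM in WT, 3211 in TNF-Tg, 3773 in tdT1 and 981 in tdT2 neutrophil-like cells, and their part in the difference was not tested. Nfkbia alone gave 423 of the WT sum and 2294 of the TNF-Tg sum. Nfkbiz was at 297 and 294, and the other feedback genes were each higher in TNF-Tg.

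In inflammatory monocyte-like cells Icam1 was at 15.5 UPM in WT, 28.0 in tdT2 and 56.6 in TNF-Tg, a ratio of 3.65 (2.15 to 6.74), where 6.49% of genes were 2-fold higher and 5.16% lower. The NF-kB feedback genes summed to 468, 587 and 994 in these libraries, and the 9 neutrophil markers of this gate to 319 in WT and 918 in TNF-Tg, with 1 of them at 0 in each. Their part in the ratio was not tested. T-cell-like cells had a ratio of 3.13 (1.16 to 9.78) from 6 and 16 UMIs, where 2.06% of genes were 2-fold higher and 9.36% lower and the median of all genes was at -0.20 on the log2 scale. TNF-Tg was above all 3 other libraries here, as it was for 12.4% of genes (below for 27.4%). In this gate the 9 inflammatory monocyte markers summed to 179 UPM in WT and 387 in TNF-Tg (5 and 3 at 0), and the 9 markers of Cd209a-marked dendritic cells to 94.8 and 184 (4 and 3 at 0), and their part was not tested.

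In LMC-marker cells the ratio was 2.85 (2.45 to 3.32) for Icam1 and 2.93 (2.27 to 3.79) for Vcam1, where 4.81% of genes were 2-fold higher and 6.25% lower. Over the alternatives the lowest ratios were 2.69 for Icam1 and 2.35 for Vcam1. For both genes WT was below the 3 other libraries and TNF-Tg lay among them. A UMI of Icam1 was read in 23.0%, 15.9%, 15.4% and 31.2% of LMC-marker cells of tdT1, tdT2, WT and TNF-Tg. The 10 LMC markers of this gate summed to 14622 UPM in WT and 8805 in TNF-Tg, and the NF-kB feedback genes to 389 and 453 (1541 in tdT1 and 365 in tdT2), and their part in the ratios was not tested. The feedback genes differed in direction. Nfkbia, Bcl3, Relb and Birc3 were higher in TNF-Tg than in WT, and Tnfaip3, Nfkb1 and Nfkbiz were lower. The 10 endothelial markers summed to 2.93 and 1.08, with 4 and 6 of them at 0.

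In VSMC-marker cells Vcam1 had a ratio of 2.58 (2.03 to 3.29), and TNF-Tg was above all 3 other libraries, as it was for 21.5% of genes (below for 41.2%). Icam1 had a ratio of 1.44 (1.13 to 1.82) and TNF-Tg lay within the range of the others. In this type 3.72% of genes were 2-fold higher and 14.4% lower, and the median of all genes was at -0.27 on the log2 scale. The 10 VSMC markers summed to 19387 UPM in WT and 12272.5 in TNF-Tg, and the NF-kB feedback genes to 324 and 315, which were not tested as a part of the ratio. The endothelial markers were at 4.21 and 1.79, with 6 and 7 of 10 at 0.

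Itgb7 in LMC-marker cells had a ratio of 0.730 (0.607 to 0.874) and was lower in TNF-Tg than in all 3 other libraries, as were 31.1% of genes, while 25.2% were above. Over the alternatives the ratio reached 0.891. Over all libraries, the LMC-marker cells of clusters 0, 1 and 9 held Itgb7 at 27.6, 1.58 and 0.990 UPM. TNF-Tg had 657 LMC-marker cells and 510 cells of any gate in cluster 0, and WT had 1497 and 1399. The part of this mix in the ratio was not tested. At equal depth the share of cells with an Itgb7 UMI, given below, was not lower in TNF-Tg than in WT. The LMC markers of this gate summed to 14622 UPM in WT and 8805 in TNF-Tg, and their part was not tested.

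Vcam1 in M2-macrophage-like cells had a ratio of 0.447 (0.357 to 0.553) from 1070 and 92 UMIs, where 4.95% of genes were 2-fold higher and 6.34% lower. TNF-Tg lay between tdT1 and WT, and with cells taken from clusters the ratio was 0.555. M1-macrophage-like cells had a ratio of 0.0980 (0.0494 to 0.177) from 142 and 12 UMIs, where 6.69% were higher and 11.3% lower. In that gate the 10 M2 markers summed to 5535 UPM in WT and 3423 in TNF-Tg, the 8 M1 markers to 3183 and 2065, and the 9 inflammatory monocyte markers to 707 and 1225, none of them at 0. The 10 VSMC markers summed to 525 and 126 there (1 and 2 at 0), the 9 markers of Cd209a-marked dendritic cells to 336 and 79.3 (0 and 1 at 0), and the 8 patrolling monocyte markers to 211 and 72.7 (2 and 0 at 0). The NF-kB feedback genes were at 661.5 and 531 in the M2 gate and at 649 and 326 in the M1 gate. The part of these sums in the ratios was not tested.

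Among the integrin chains, Itgal was past 2-fold in 3 types. In M2-macrophage-like cells its ratio was 2.45 (1.44 to 4.05), within the range of the other libraries, and the 9 neutrophil markers of that gate summed to 165 UPM in WT and 1067 in TNF-Tg (0 and 1 of them at 0), whose part was not tested. In M1-macrophage-like cells the ratio was 0.348 (0.181 to 0.629), and 1.19 with cells from clusters, and the part of the marker sums given above for that gate was not tested. In inflammatory monocyte-like cells the ratio was 1.60, and 2.18 with cells from clusters. In T-cell-like cells it was 0.481 (0.342 to 0.669), below all 3 other libraries, and up to 0.543 in the alternatives. Here too the part of the marker sums given above for the T-cell-like gate was not tested. Itgb2 and Selplg had ratios of 0.620 to 1.94 over the types and passed 2-fold in none of them. The highest, of Itgb2 in LMC-marker cells, rests on levels of 1.73 UPM or less.

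Itgam was past 2-fold only in Cd209a-marked dendritic cell-like cells among the 9 types, at 189.7 UPM in tdT1, 196 in WT and 94.7 in TNF-Tg, a ratio of 0.484 (0.405 to 0.577), where 6.02% of genes were 2-fold higher and 9.14% lower. The M2 markers of that gate were at 1005 and 496 in WT and TNF-Tg, and the inflammatory monocyte markers at 751 and 1368, and their part was not tested. The ratio of Itgam in M1-macrophage-like cells was 1.82 (1.66 to 2.00). The cDC1-like cells had ratios of 2.45 (1.46 to 4.22) for Itgax and 0.340 (0.254 to 0.450) for Itga4, where 7.82% of genes were higher and 9.68% lower. All 133 cDC1-like cells of the libraries lay in 1 unnamed cluster with Hist1h1b, Top2a and Mki67 among its leading genes. Their ratios therefore have no alternative from clusters. In that gate the 9 inflammatory monocyte markers summed to 242 and 492 UPM in WT and TNF-Tg (3 and 2 at 0) and the 10 M2 markers to 34.1 and 6.22 (0 and 6 at 0), and their part was not tested. Itgax in inflammatory monocyte-like cells had 1 UMI in WT and 33 in TNF-Tg, and its interval of 0.731 to 178 held 1.

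Against all 3 other libraries, neutrophil-like cells of TNF-Tg were also above in Itgb2 (458 against 453 UPM in WT) and below in Itga4 and Selplg. T-cell-like cells were also below in Itgb2. LMC-marker cells were also above in Itgb2, but at levels of only 0 to 1.73 UPM over the libraries. The M2-macrophage-like cells of TNF-Tg were above in Itgb2 and Itgb7 and below in Itga4 and Selplg, of 8 members, where 28.3% of genes were above and 17.0% below. The 22 Ear2-marked dendritic cell-like cells of TNF-Tg were above in Itgam and below in Itgax, Itgal, Itga4 and Itgb7, of 8 members, where 19.7% were above and 31.0% below. In these 22 cells Itgax, Itgal and Itgb7 rest on 4, 1 and 6 UMIs. The intervals of the ratio over WT held 1 for Itgam, Itgal, Itga4 and Itgb7. These comparisons set 1 library against 3 and carry no test.

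The other genes of leukocyte adhesion were counted in 4 lists over the same 9 types. The 11 integrin activation genes, such as Apbb1ip, which links Rap1 to talin, were past 2-fold in 3 pairs up and 2 down of 89. The 9 other leukocyte integrins were so in 4 up and 6 down of 39, the 10 selectins and enzymes of their ligands in 6 up and 5 down of 42, and the 12 other ligands in 3 up and 8 down of 33. The background is again 5.39% up and 8.83% down.

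Fn1, which encodes fibronectin, a ligand of alpha 4 beta 1, had ratios of 4.51 in M1-macrophage-like, 0.426 in LMC-marker and 0.336 in VSMC-marker cells. Thy1 was at 108 and 36.3 UPM in WT and TNF-Tg LMC-marker cells, a ratio of 0.336 (0.299 to 0.377). In VSMC-marker cells, named after its values were seen, Thy1 was at 18.5 and 46.1, a ratio of 2.49 (1.90 to 3.27). Cd44, the hyaluronan receptor, had ratios of 2.05 in M2-macrophage-like and 0.476 in T-cell-like cells. In M1-macrophage-like cells Apbb1ip had a ratio of 2.20 and Cyth1 of 0.454.

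Between LMC-marker and VSMC-marker cells 10 of 22 of these genes were called. Fn1 (log2 1.79), Itga2 (1.99), Itgb3 (0.90), Rap1a (0.62) and Cd34 (0.53) were higher in LMC-marker cells, and Rasgrp2 (-2.56), Jam2 (-1.55), Cd44 (-0.84), St3gal4 (-0.81) and Jam3 (-0.76) were lower. Between neutrophil-like and inflammatory monocyte-like cells 10 of 20 were higher, among them Gcnt1 (log2 2.56), Cd44 (2.10), Apbb1ip (1.46), Skap2 (1.43), Fyb (1.02), Cyth1 (0.95), St3gal4 (0.89), Cytip (0.77) and Rap1b (0.64). Itga1, with 0 UMIs in neutrophil-like cells, Fn1 (-4.78), Rap1a (-0.85) and Itgb1 (-1.46), the other partner of alpha 4, were lower.

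T-cell-like against M1-macrophage-like cells had 8 higher and 3 lower of 27. Skap1 and Itgae, with 0 UMIs in the M1-macrophage-like cells, and Thy1 and Itgb3, with 4 and 3 UMIs there in WT and 0 in TNF-Tg, were higher. So few UMIs give no size of difference. Fut7 (log2 3.48), Icam2 (2.37) and Cytip (1.55) were also higher, and Fn1 (-3.22), Skap2 (-3.20) and Gcnt1 (-1.98) were lower. Cd209a-marked dendritic cell-like against M1-macrophage-like cells had 3 higher and 4 lower of 24. Fut7, which fucosylates selectin ligands (log2 3.22), Cytip (2.36) and St3gal4 (1.59) were higher, and Fyb (-2.46), Gcnt1 (-1.93), Rap1b (-1.29) and Tpst2 (-1.14) were lower. The value of Fut7 rests on 5 and 2 UMIs in M1-macrophage-like cells of WT and TNF-Tg in both comparisons. M2-macrophage-like against M1-macrophage-like cells had 0 of 22 called by edgeR and 2 by DESeq2.

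The Itgb7 UMIs of LMC-marker cells, looked at further after the level had been seen, were unevenly spread over the cells. A UMI was read in 129 of 800 cells of tdT1, 8 of 132 of tdT2, 218 of 1497 of WT and 70 of 657 of TNF-Tg, or 16.1%, 6.06%, 14.6% and 10.7%, and in 3, 0, 2 and 1 VSMC-marker cells. Thinned to 3000 UMIs per cell the shares were 7.68%, 5.71%, 5.23% and 5.68%. At least 5 UMIs were read in 19, 1, 34 and 9 cells, and the highest cell of each library held 12, 5, 17 and 10. The cells with an Itgb7 UMI held 1, 0, 2 and 1 UMIs of Itga4 and 0 of Itgae, the partner chains. By cluster, 418 of the 2606 LMC-marker cells of cluster 0 held a UMI, against 3 of 205 in cluster 1 and 3 of 217 in cluster 9.

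The cells with an Itgb7 UMI were set beside the LMC-marker cells without, with no test, since the UMI itself chose them. Of 4186 genes ranked on tdT1, WT and TNF-Tg, those with the highest ratios were Sbsn, Akr1c18, Cd200, Mrgprg and Bmp7, a bone morphogenetic protein. Cd200, which encodes an inhibitory ligand of myeloid cells, was higher by 1.48, 1.64, 1.52 and 1.48 on the log2 scale in tdT1, tdT2, WT and TNF-Tg. The lowest were Col4a1, a basement membrane collagen (-2.20, -3.76, -1.08 and -1.34), Bgn, Cxcl12, Lum and Sned1. The ranking took the weakest of the ratios in tdT1, WT and TNF-Tg, so a shared direction in these libraries follows from the choice. The tdT2 ratios rest on few UMIs in the cells with Itgb7, such as 9 of Cd200 and 3 of Col4a1. Median UMIs per cell with and without were 17116 and 11134 in tdT1, 7625.5 and 5991 in tdT2, 15923.5 and 16197 in WT, and 10161.5 and 13146 in TNF-Tg, and the part of depth was not tested. Rarg, the neighbour of Itgb7 on the same strand, was at 37.8 to 54.5 UPM in LMC-marker and 23.6 to 52.8 in VSMC-marker cells, and no annotated gene overlaps Itgb7.

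**Figure D4:**
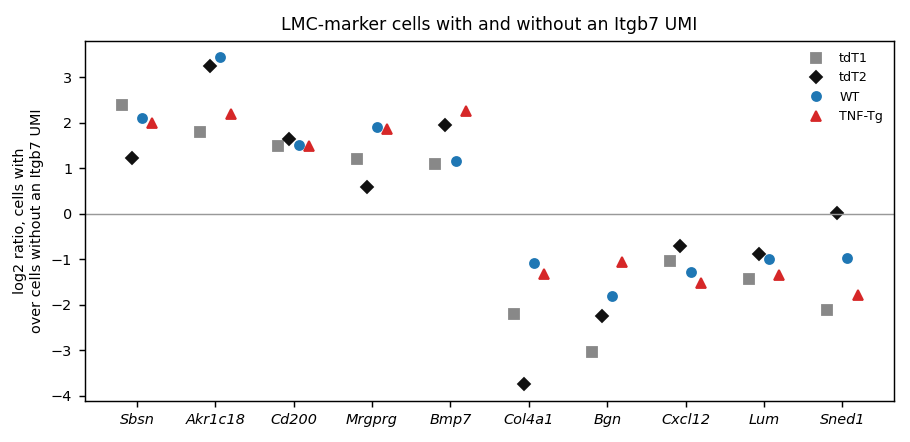
The log2 ratio of levels, with 1 UMI added, between LMC-marker cells with and without an Itgb7 UMI, for the 5 genes with the highest and the 5 with the lowest ratios, 1 point per library. The genes were ranked on tdT1, WT and TNF-Tg, so the shared side of 0 in these libraries follows from the choice. In tdT2, where 8 cells held a UMI, Sned1 is at 0.01 and the other genes lie on the same side. There the cells with an Itgb7 UMI held only 1 UMI of Sbsn, 2 of Bmp7, 2 of Bgn and 3 of Col4a1.

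The 3 genes most like each member across 30 sums of cell type and library, out of 12496, are given by the Pearson correlation of log2 levels as a description, since the sums share libraries and depth. They were Fcgr3 (0.953), Lilrb4a (0.935) and Ccl6 (0.922) for Itgam, and Ezr (0.830), Cd244a (0.798) and Prr5l (0.792) for Itgax. Itgal had Rab8a (0.942), Gpsm3 (0.913) and Bin2 (0.911), and Itgb2 had Tnfaip8l2 (0.980), AB124611 (0.978) and Stap1 (0.955). Itga4 had Was (0.982), Nckap1l (0.975) and Arhgap30 (0.974), and Itgb7 had Pkp3 (0.873), Runx3 (0.857) and Hist1h4d (0.832).

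Selplg had Rac2 (0.979), Lcp1 (0.978) and Dock8 (0.978). Vcam1 had Sema6d (0.941), Slco2b1 (0.927) and Cp (0.924). Icam1 had Lrch1 (0.738), Rapgef5 (0.731) and Aqp1 (0.729), the lowest likeness of the 9 members.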

How the data were processed

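Droplet single-cell RNA was measured in 4 libraries (tdT1, tdT2, WT and TNF-Tg). Per the file headers, the deposited matrices hold raw UMI counts per gene and cell, made by the authors with Cell Ranger 3.1.0 (tdT1) or 6.0.1 (the others), whereas the submitters' processing notes name 3.1.0 for all and Seurat 4.0.3. The build is mm10. The gene lists differ (31053 genes in tdT1, 32287 in the others), and the 30406 shared genes were used.

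The members and all gene lists were chosen with earlier results of these data known, and the scoring of the gates, the immediate-early list and the NF-kB feedback list were set after the data had been seen. A leukocyte had at least 10 UMIs of leukocyte lineage genes and under 30 of stromal genes per 10000, and a stromal cell at least 30 stromal and under 3 leukocyte UMIs. A type needed 3 detected markers and a lead of 0.05 in score over the next type. Predicted doublets (Scrublet in Scanpy 1.11.5) and cells of mixed lineage were left out. As an alternative, cell types came from 22 Seurat 5.3.0 clusters (resolution 0.5), of which 17 were named and which were made without the members.

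Intervals are exact at 95%, and a count of 0 allows up to 3 counts. Intervals and limits cover counting error only. Ratios needed 20 UMIs in both libraries together. Class tests used edgeR 4.0.16 (TMM, filterByExpr, quasi-likelihood, adjusted p below 0.01) with the library as a block, since each library gave both cell types. On simulated counts of the LMC-marker and VSMC-marker comparison the test recovered 96 of 98 genes changed by 2 and 29 of 99 changed by 1 on the log2 scale, with 1 false call among 10456 genes. DESeq2 1.42.0 was an alternative. The 9 members were always named. Genes of the pathway lists were named where past 2-fold and at 100 UMIs per 1000000 (UPM) or more in either library in a compared type, or called in a test, beside the 3 genes most like each member. Libraries and cell types with under 10 cells gave no level, except the 6 endothelial-like cells of TNF-Tg. Values of 1 gene of the pathway lists that the rule names are not reported here.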

Additional observations from a re-analysis of the deposited data

Results flagged for a closer look

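The ratio of TNF-Tg over WT went past 2-fold in opposite directions in different cell types for 2 members, and the difference between cell types was not tested, since each ratio compares 1 library with 1. For Itgal the ratio was 2.45 in M2-macrophage-like cells, 0.348 in M1-macrophage-like cells and 0.481 in T-cell-like cells. For Vcam1 it was 2.93 in LMC-marker and 2.58 in VSMC-marker cells, and 0.447 in M2-macrophage-like and 0.0980 in M1-macrophage-like cells. The M1-macrophage-like ratio of Itgal was 1.19 with cells taken from clusters.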

How the results depend on the processing

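The 15 pairs past 2-fold (9 up, 6 down, of 59) became 9 of 46 with at least 100 UMIs and 26 of 59 at 1.5-fold, by the construction of these settings. Of 162 shares of cells, 101 were at 10% or more, and 65 were after thinning to 1500 UMIs. The matching shares over all genes were not taken for these settings, so these counts do not set the members apart from other genes. The 1553 calls between LMC-marker and VSMC-marker cells became 239 with no replicate block and 2511 at a threshold of 0.05, and 948 to 1423 without each library in turn (948 without WT, 977 without TNF-Tg). The 147 calls between M2-macrophage-like and M1-macrophage-like cells became 275 with DESeq2, 1013 with no filter, 0 with no replicate block, 666 at 0.05, 520 with cells from clusters and 398 with mixed cells and doublets kept. The 3327 calls between neutrophil-like and inflammatory monocyte-like cells became 1930 to 3457 without each library in turn (1930 without WT, 2181 without TNF-Tg). The 1166 calls between Cd209a-marked dendritic cell-like and M1-macrophage-like cells became 617 with DESeq2, 153 with no replicate block and 1874 at 0.05, and the 1758 between T-cell-like and M1-macrophage-like cells became 652 with DESeq2 and 1078 with cells from clusters. The cause of these changes was not tested beyond the settings' own construction.

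With cells from clusters, the Itgal ratio in M1-macrophage-like cells turned to 1.19. Among ratios below 2-fold, Itgb7 in M1-macrophage-like cells crossed from 0.713 to 2.25. Itgb2 in T-cell-like cells crossed from 0.904 to 1.39, and Itga4 there from 1.41 to 0.867. A cluster named for T cells held 77 T-cell-like and 56 NK- or ILC-like gated cells, so this setting compares another mix of cells. In the same setting the log2 difference of M2-macrophage-like over M1-macrophage-like cells turned to -0.15 for Icam1, 0.25 for Itgam and -0.054 for Itgb2, and that of T-cell-like over M1-macrophage-like cells to 0.0049 for Itgb2, and none of these 4 was called by edgeR in either setting. Over all alternatives, 243 single values of the class tests kept their direction and side of the threshold, 11 passed it, 18 lost it and 4 turned. Of the ratios 269 held, 17 moved and 1 past 2-fold turned (crossings of 1 by ratios below 2-fold are counted as held or moved). Of the levels 86 held and 10 moved. To hold meant to stay within the counting interval of the main value, which is wide for few UMIs. It did not mean to stay past 2-fold, as Itgal in T-cell-like cells did in 2 of 5 alternatives. The levels were picked ones, of Icam1, Vcam1 and Itgb7 in stromal, Icam1 in neutrophil-like and Vcam1 in M2-macrophage-like cells. The call of Itgb7 between LMC-marker and VSMC-marker cells held in 11 of 11 alternatives. Comparisons with M1-macrophage-like cells have 2 libraries, so leaving out either gives no test. Condition and library cannot be told apart at any depth here, and types with few cells limit the low levels.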
